A study of Mus musculus with 536 samples.

Results

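The genes described here are Ccr7, Il7r, Lef1, S1pr1 and Klf2, a set that marks resting, recirculating lymphocytes and equips them to enter lymph nodes, leave them again and survive in between. They are 5 of 12393 genes measured in mouse peripheral blood after whole-body irradiation, each read from the brightest of its probe sets, judged by its mean over the 536 arrays. Levels are log2 intensities, on which a difference of 1 is a 2-fold change, and each is compared only with the same gene's level in other mice. Klf2 was bright, with a mean of 10.31 at the 96.5th percentile of all genes, and Il7r (9.12), Ccr7 (8.17) and S1pr1 (7.77) were well within the measured range. Lef1 was dim, with a mean of 4.44 at the 15.6th percentile, where differences are compressed. Probe sets differ in brightness for technical reasons, so these means do not rank the 5 transcripts.

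All mice were C57BL/6 animals aged 10 to 12 weeks, exposed once to a caesium-137 source, and blood was taken by terminal cardiac puncture and depleted of globin RNA before hybridisation. In the dose-time set, 240 mice of unrecorded sex received no radiation (0 cGy), 100 or 200 or 300 cGy, or a higher dose of 450, 600, 800 and up to 1050 cGy, and were bled at 6, 24, 48, 72, 120 or 168 hr, with 5 mice in each of 48 groups. In the sex-treatment set, 111 females and 115 males (3 to 5 mice per group) received 200, 300 or 600 cGy or 0 cGy with LPS, with GCSF or with no agent, and were bled at 6 or 24 hr. LPS is lipopolysaccharide, a bacterial cell wall component that triggers inflammation, and GCSF is the growth factor that mobilises neutrophils; the labels do not give their amount or the hour of their injection. A small treatment set of 50 mice, all bled at 6 hr, crossed 150 and 600 cGy and 0 cGy with the same agents, and a small 7 day set held 10 mice given 150 cGy and 3 given 0 cGy, all bled at 168 hr, beside 5 unirradiated mice bled earlier. The labels number each mouse within its group and name no litter or shared day. Whole blood was profiled, so fewer lymphocytes in the blood and less transcript per lymphocyte cannot be told apart in any result below.

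Naive T and B cells spend their lives circulating between blood and lymphoid organs. The chemokine receptor CCR7 lets them cross into lymph nodes towards its ligands, and S1PR1, a receptor for the blood lipid sphingosine 1-phosphate, draws them out again. IL-7 receptor alpha, encoded by Il7r, receives the cytokine signal that keeps naive T cells alive through BCL2 family proteins. LEF1 is a transcription factor of the TCF family that is high in naive T cells and early B cells, and KLF2 is a transcription factor that holds lymphocytes in quiescence and, in mouse T cells, switches on S1pr1. Klf2 is also expressed by myeloid cells and by the endothelium that lines vessels, where blood flow induces it. Tcf7, Cd69 and Il2rg, known partners of these genes, were not analysed here. Circulating lymphocytes are among the most radiosensitive cells of the body, and B cells are more sensitive than T cells.

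Promoter windows from 250 bases before to 50 bases after the start site were at hand for 3 of the 5 genes, from RefSeq (GRCm38.p6). Those of Il7r and Klf2 are shown because the slopes of these genes over all doses had opposite signs from 48 hr on. The 2 windows also differ in make-up. The Il7r window (chr15:9529827-9530126, minus strand) was 45.7% G and C, and the Klf2 window (chr8:72318812-72319111, plus strand) was 69.3%, at the 24th and the 89.5th percentile of 32851 windows. Capitals mark GGAAGT (the core that ETS family factors read), GGGCGG (the GC box) and CACCC (a core read by KLF and SP factors), each on either strand.
Il7r: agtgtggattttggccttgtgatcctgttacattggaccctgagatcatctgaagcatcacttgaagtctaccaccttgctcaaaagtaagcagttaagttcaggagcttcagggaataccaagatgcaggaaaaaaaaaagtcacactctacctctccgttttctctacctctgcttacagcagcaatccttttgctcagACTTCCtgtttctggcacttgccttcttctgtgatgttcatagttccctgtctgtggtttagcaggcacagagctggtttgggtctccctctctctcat
Klf2: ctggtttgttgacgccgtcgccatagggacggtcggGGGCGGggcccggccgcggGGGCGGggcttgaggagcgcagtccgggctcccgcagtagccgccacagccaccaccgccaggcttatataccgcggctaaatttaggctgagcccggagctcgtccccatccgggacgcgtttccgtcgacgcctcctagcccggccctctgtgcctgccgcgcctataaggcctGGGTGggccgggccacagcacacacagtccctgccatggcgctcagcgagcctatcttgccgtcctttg
The Il7r window held 1 GGAAGT match, seen here as its reverse complement, and none of the other motifs; the Klf2 window held 2 GGGCGG matches and 1 CACCC match. GGAAGT occurred in 23.8% of all windows, GGGCGG in 35.7% and CACCC in 57.5%, and no match to GTAAACA (read by FOXO factors, 3.65% of windows) was found in either. These matches describe the letters in the windows only.

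The blood identity of the samples was clear in unirradiated mice, in which the 4 CD3 complex genes averaged between 8.97 and 9.52 per mouse at 6 hr and the 18 B cell genes between 8.77 and 9.27. Some mice stood apart from their group in Ccr7 and Il7r. At 24 hr, the level of Ccr7 was 9.81, 9.39, 9.48, 9.16 and 6.03 in the mice given 800 cGy. Of these, 4 lay far nearer the unirradiated mice (9.79 to 10.27) than the fifth did, though only the mouse at 9.81 was within their range. At 1050 cGy and 24 hr it was 8.61, 9.48, 6.45, 6.16 and 8.78, again split. At 48 hr the level of Ccr7 was between 8.76 and 9.54 in 4 mice given 200 cGy and at 6.30 in the fifth, and at 300 cGy it was between 8.94 and 9.18 in 4 mice and at 5.65 in the fifth. The mice near the unirradiated level at these 2 doses bear numbers of 10 or more in the labels and the low ones a number below 10, whereas the low mouse at 800 cGy and 24 hr is the one numbered 10. In all, 50 of the 240 mice, all of them irradiated and at 24 hr or later, bear such numbers. Dose slopes of the 5 genes are therefore also given without them where a call changed or the slope moved by over 1.5 times. Hepatocyte transcripts were present in many samples. Alb, the liver's albumin gene, was at 10 or above in all 40 mice given 450 cGy or more at 120 or 168 hr and in none of the 10 unirradiated mice at those times. At 24, 48 and 72 hr it was also at 10 or above in 3, 3 and 2 of 5 unirradiated mice.

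**Figure D1:**
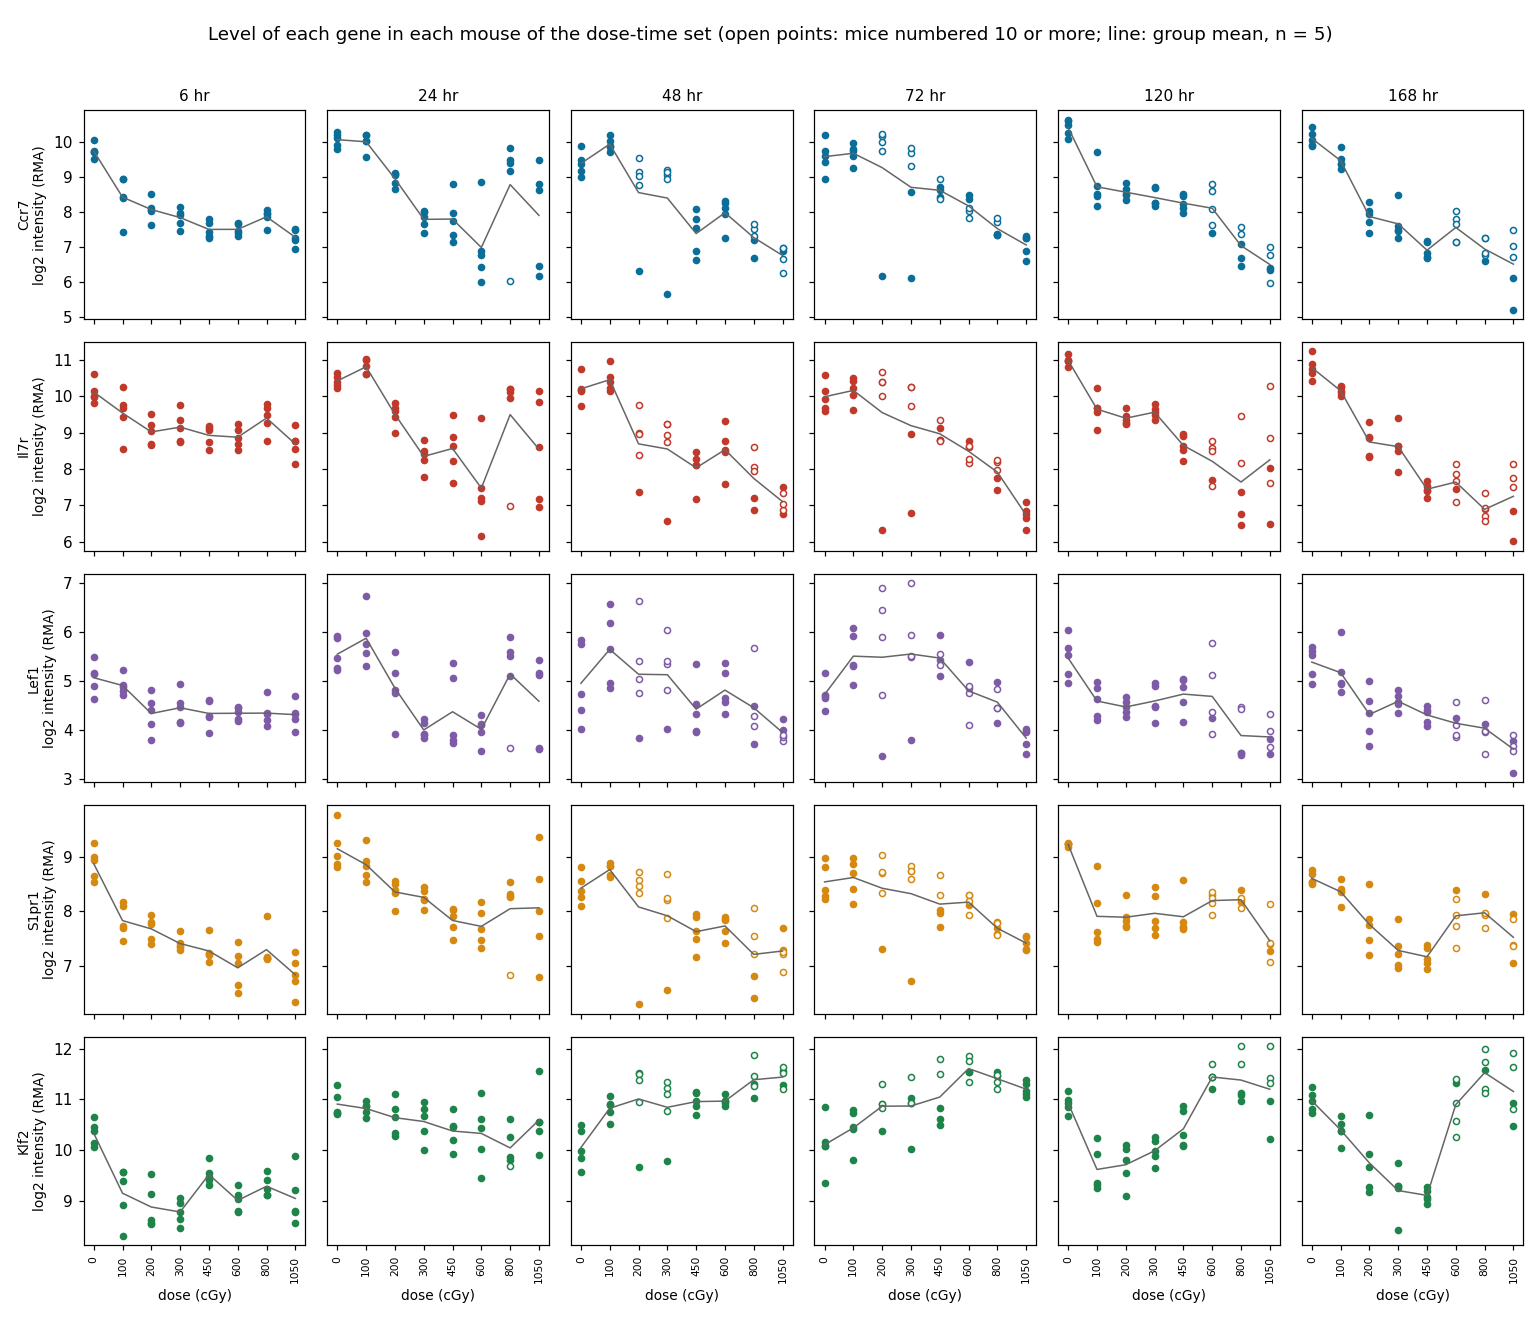
Log2 intensity (y axis) of each gene (rows) in every mouse of the dose-time set against dose in cGy (x axis, evenly spaced steps) at each time (columns); the line joins group means of 5 mice, and open points are mice numbered 10 or more. Ccr7 and Il7r step down with dose, the split groups at 24, 48 and 72 hr are visible, and Klf2 turns upward above 450 cGy at 168 hr.

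Ccr7, the lymph node homing receptor, fell with dose at every time. At 6 hr its level was 7.39, 7.66, 7.46, 7.31 and 7.67 in mice given 600 cGy, against 9.51, 9.69, 10.03, 9.74 and 9.70 in unirradiated mice. The groups did not overlap, and the difference was -2.24 ± 0.41 (SE; limma, adjusted p = 2.3e-06). The lowest dose already lowered it: the level was 8.43, 8.39, 8.92, 8.92 and 7.42 after 100 cGy, a difference of -1.32 ± 0.41 (adjusted p = 0.011). All of these mice lay below all unirradiated mice. The dose slope, in log2 units per 100 cGy over the 8 doses, was -0.16 ± 0.03 at 6 hr, -0.19 at 24 hr, -0.27 at 48 hr, -0.26 at 72 hr, -0.30 at 120 hr and -0.30 at 168 hr, and all 6 slopes passed the test (adjusted p at most 4.7e-06). The slope was therefore steeper late, and its variation over the times passed the F test (adjusted p = 0.0047). Over 0 to 300 cGy alone this order was not seen, with slopes of Ccr7 of -0.61, -0.79, -0.43, -0.30, -0.61 and -0.89 at the 6 times. Without the mice numbered 10 or more the slopes at 48 and 72 hr were -0.17 and -0.16, still past the threshold.

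At 24 hr its level was 6.43, 6.76, 6.87, 5.99 and 8.86 after 600 cGy, against 10.12, 9.90, 10.19, 9.79 and 10.27 at 0 cGy. All 5 irradiated mice were lower, 1 of them by far less than the rest, and the difference was -3.07 ± 0.41 (adjusted p = 6.7e-10). At 168 hr the level was 7.14, 8.03, 7.15, 7.80 and 7.64 after 600 cGy, against 9.89, 10.41, 10.22, 9.91 and 10.04 at 0 cGy. The groups were still apart a week after exposure, with a difference of -2.54 ± 0.41 (adjusted p = 5.8e-08). The lowest group mean relative to 0 cGy was at 1050 cGy and 120 hr (-3.90 ± 0.41, adjusted p = 3.2e-16). The sample titles carry a number code that divides the arrays into 5 sets, called array runs here, each with 1 mouse of every group; the labels do not say what the code stands for. Within each of the 5, Ccr7 was lower after 600 cGy at all 6 times.

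S1pr1, the receptor for egress into the circulation, fell with dose at every time. At 6 hr its level was 7.45, 6.66, 7.18, 6.50 and 7.05 after 600 cGy, against 9.01, 8.93, 9.26, 8.54 and 8.65 at 0 cGy. The groups were separated by over 1 log2 unit, and the difference was -1.91 ± 0.26 (adjusted p = 4.4e-10). After 100 cGy the level was 7.70, 7.73, 8.10, 8.18 and 7.46, a difference of -1.04 ± 0.26 (adjusted p = 0.0015). The dose slope was -0.14 at 6 hr and then shallower or alike, at -0.10, -0.13, -0.11, -0.08 and -0.06 at 24, 48, 72, 120 and 168 hr. All 6 slopes passed the test, and those at 120 and 168 hr were less steep than that at 6 hr (adjusted p = 0.020 and 0.0042). This order was not seen without the highest doses. Over 0 to 300 cGy alone the slope of S1pr1 was -0.45 at 6 hr, -0.38 at 120 hr and -0.46 at 168 hr, and it missed the threshold at 72 hr (-0.08, adjusted p = 0.4). Without the arrays with Alb at 10 or above, which leaves no mouse given 450 cGy or more at the last 2 times, it was -0.14 at 6 hr, -0.38 at 120 hr and -0.48 at 168 hr. Its mean was lowest at 450 cGy at 168 hr (7.17 ± 0.18, SD, n = 5) and higher again at 600 and 800 cGy (7.92 ± 0.42 and 7.97 ± 0.23), against 8.60 ± 0.11 at 0 cGy. Without the mice numbered 10 or more, the slope of S1pr1 at 168 hr was -0.04 and missed the threshold (adjusted p = 0.14), and those at 48 and 72 hr were -0.08 and -0.07, still past it.

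Il7r, the cytokine receptor of naive T cell survival, fell at every time, and more steeply from 48 hr on than at 6 hr. At 6 hr its level was 8.68, 8.86, 9.06, 8.52 and 9.24 after 600 cGy, against 10.14, 9.82, 10.62, 9.99 and 10.01 at 0 cGy. The groups did not overlap, and the difference was -1.24 ± 0.43 (adjusted p = 0.012). The slope at 6 hr was only -0.08 ± 0.03 (adjusted p = 0.031) and missed the threshold with the dimmer probe set of Il7r (-0.08, adjusted p = 0.05) and in 3 of the 5 fits that leave out 1 mouse per group. The slopes at 24, 48, 72, 120 and 168 hr were -0.18, -0.28, -0.31, -0.26 and -0.34. From 48 hr on each was steeper than at 6 hr, by -0.17 to -0.26 log2 units per 100 cGy, with adjusted p values at most 0.0003. With the dimmer probe set of Il7r the slopes at 48, 72, 120 and 168 hr were -0.24, -0.27, -0.16 and -0.19, all past the threshold. Over 0 to 300 cGy alone the slope of Il7r was -0.34 at 6 hr and -0.30 at 72 hr, where it missed the threshold (adjusted p = 0.058). At 168 hr the level of Il7r was 7.45, 7.85, 7.09, 8.13 and 7.66 after 600 cGy, against 10.42, 10.65, 11.23, 10.76 and 10.88 at 0 cGy. That difference, -3.15 ± 0.43 (adjusted p = 2.1e-10), was the largest of the 5 genes at this dose over the 6 times.

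Lef1, the TCF family factor of naive T cells, fell less, on a probe set near the bottom of its range. Its level at 6 hr was 4.37, 4.18, 4.22, 4.47 and 4.45 after 600 cGy, against 4.63, 5.16, 5.13, 5.49 and 4.89 at 0 cGy. The groups did not overlap, but the difference of -0.72 ± 0.34 missed the threshold (adjusted p = 0.067), and so did the slope of -0.06 at 6 hr (adjusted p = 0.057). The 6 hr slope of Lef1 passed with the array run as a block (adjusted p = 0.043), without the mice numbered 10 or more (0.017) and without the arrays with Alb at 10 or above (0.021). The slope was called from 24 hr on, at -0.08, -0.12, -0.12, -0.11 and -0.15. Without the mice numbered 10 or more the slope of Lef1 was -0.08 at 48 hr (adjusted p = 0.036) and missed the threshold at 72 hr (-0.05, adjusted p = 0.073). Over 0 to 300 cGy alone it was 0.0012 at 48 hr, which was not called, and above 0 at 72 hr (0.25, adjusted p = 0.049). The largest difference at 600 cGy was at 24 hr, when the level was 4.11, 3.96, 3.56, 4.10 and 4.31 against 5.91, 5.25, 5.46, 5.21 and 5.88 at 0 cGy. All irradiated mice were lower, by -1.53 ± 0.34 on average (adjusted p = 0.00017). The slope of Lef1 was not shown to vary over the times (adjusted p = 0.15), whereas those of the other 4 genes passed this test, as did 92.3% of all genes; all 5 genes passed it without the mice numbered 10 or more, and also without the arrays with Alb at 10 or above.

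Klf2, the quiescence factor, fell at first and then parted from the others. At 6 hr its level was 9.32, 8.81, 9.05, 8.78 and 9.12 after 600 cGy, against 10.06, 10.46, 10.66, 10.37 and 10.14 at 0 cGy. The groups did not overlap, and the difference was -1.32 ± 0.25 (adjusted p = 4.2e-06). A dose of 100 cGy gave nearly the same loss, with levels of 8.92, 9.40, 9.58, 9.57 and 8.32 and a difference of -1.18 ± 0.25 (adjusted p = 0.0002). The slope over all doses was thus shallow at 6 and 24 hr, at -0.05 at both times (adjusted p = 0.035 and 0.022). The 6 hr slope of Klf2 missed the threshold with quantile normalization (limma, adjusted p = 0.053). Both slopes also missed it in some fits that leave out 1 mouse per group, with adjusted p up to 0.23 at 6 hr and 0.16 at 24 hr. The 24 hr slope of Klf2 missed the threshold without the 800 cGy mice (-0.03, adjusted p = 0.18), without the arrays with Alb at 10 or above (-0.04, adjusted p = 0.14) and over 0 to 300 cGy alone (-0.12, adjusted p = 0.24).

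From 48 hr Klf2 rose with dose. At 72 hr its level was 11.53, 11.54, 11.35, 11.85 and 11.77 after 600 cGy, against 10.09, 10.16, 10.84, 10.09 and 9.36 at 0 cGy. Every irradiated mouse was above every unirradiated one, and the difference was 1.50 ± 0.25 (adjusted p = 8.7e-08). Its slopes at 48, 72, 120 and 168 hr were 0.10, 0.11, 0.14 and 0.11, and each was above that at 6 hr by 0.15 to 0.19. Without the mice numbered 10 or more the 120 hr slope of Klf2 was 0.08, still past the threshold. At 120 and 168 hr the slope hides a turn. At 168 hr the group means of Klf2 were 10.97 at 0 cGy and then 10.40, 9.75, 9.21 and 9.11 at 100, 200, 300 and 450 cGy, before 10.90, 11.53 and 11.16 at 600, 800 and 1050 cGy. In single mice the level was 9.05, 9.20, 9.08, 8.95 and 9.29 at 450 cGy and 11.33, 11.40, 10.93, 10.58 and 10.26 at 600 cGy, with no overlap between the 2 doses, and 10.80, 11.25, 11.09, 10.74 and 10.98 at 0 cGy. Over 0 to 300 cGy alone the slope of Klf2 was -0.27 at 120 hr and -0.59 at 168 hr (adjusted p = 0.0039 and 3.9e-11).

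Markers of other tissues and cells also moved with dose. All 17 hepatocyte genes rose with dose at 120 and at 168 hr and none did earlier. The mean level of the hepatocyte list per mouse was between 11.71 and 13.23 after 600 cGy at 168 hr, against 4.57 to 5.33 at 0 cGy. After 450 cGy it was between 8.44 and 10.63. Without the arrays with Alb at 10 or above, which removes every mouse given 450 cGy or more at these times, the slopes of Klf2 were -0.28 and -0.63 at 120 and 168 hr (adjusted p = 0.00064 and 7.7e-12). Of 22 genes of endothelium, a tissue in which Klf2 is abundant, 3, 12, 10, 9, 13 and 11 rose at 6, 24, 48, 72, 120 and 168 hr, where 16.2%, 18.9%, 24.0%, 26.3%, 35.4% and 35.5% of all genes did, and 1, 0, 0, 1, 4 and 6 fell, where 18.5%, 19.8%, 23.3%, 27.1%, 47.0% and 46.6% did. Their mean level was between 6.08 and 6.17 after 600 cGy at 72 hr, against 5.51 to 5.89 at 0 cGy. Of 12 genes of mature neutrophils, the dose slope was called higher for 12 at 6 hr and 0 at 24 hr, and lower for 0 at both times. It was called higher for 10, 9, 3 and 4 at 48, 72, 120 and 168 hr and lower for 1, 2, 8 and 6. At 72 hr 6 of 10 monocyte genes and 11 of 13 platelet genes rose, and 12 of 13 erythroid genes fell. The part of these markers in the level of Klf2 was not tested.

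Counted together, 4 of the 5 genes fell with dose at 6 hr, where 18.5% of all genes did, and all 5 at 24 hr, where 19.8% did. At 48, 72, 120 and 168 hr, 4 of the 5 fell, against 23.3%, 27.1%, 47.0% and 46.6% of all genes, and Klf2 alone rose, as did 24.0%, 26.3%, 35.4% and 35.5%. Leaving out 1 mouse per group gave between 2 and 5 calls at 6 hr and between 3 and 5 at 24 hr. After 100 cGy alone, 3 of the 5 (Ccr7, S1pr1 and Klf2) were lower at 6 hr, against 17.4% of all genes. At 24 hr none was called in either direction (6.76% of all genes were). At 48 hr Klf2 was higher by 0.77 ± 0.25 (adjusted p = 0.011), as 17.9% of genes were, and at 72 hr again none was called (13.8%). At 120 hr all 5 were lower, against 31.7%, and at 168 hr none was called, where 9.96% of genes were lower. The 100 cGy group at 120 hr differed widely, with 71.3% of all genes called in either direction. After 300 and 600 cGy at 120 hr that share was smaller, at 43.5% and 46.2%. The cause of this wide shift was not tested.

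After 100 cGy Ccr7 was thus called at 6 and 120 hr and at none of the times between. At 120 hr its level was 8.51, 8.73, 8.18, 8.45 and 9.69, against 10.58, 10.09, 10.62, 10.48 and 10.23 at 0 cGy. No irradiated mouse reached the unirradiated range, and the difference was -1.69 ± 0.41 (adjusted p = 0.00016). The level of Klf2 was 9.37, 9.92, 9.26, 9.33 and 10.24, against 10.68 to 11.17 in the 5 unirradiated mice, and that of S1pr1 was 7.49, 8.16, 7.44, 7.62 and 8.83, against 9.23, 9.23, 9.23, 9.18 and 9.26. Both were lower in every mouse, by -1.30 ± 0.25 and -1.32 ± 0.26, and in each of the 3 genes the same mouse was the least affected. Il7r (-1.34 ± 0.43) and Lef1 (-0.87 ± 0.34) were lower as well (adjusted p = 0.0038 and 0.017).

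**Figure D2:**
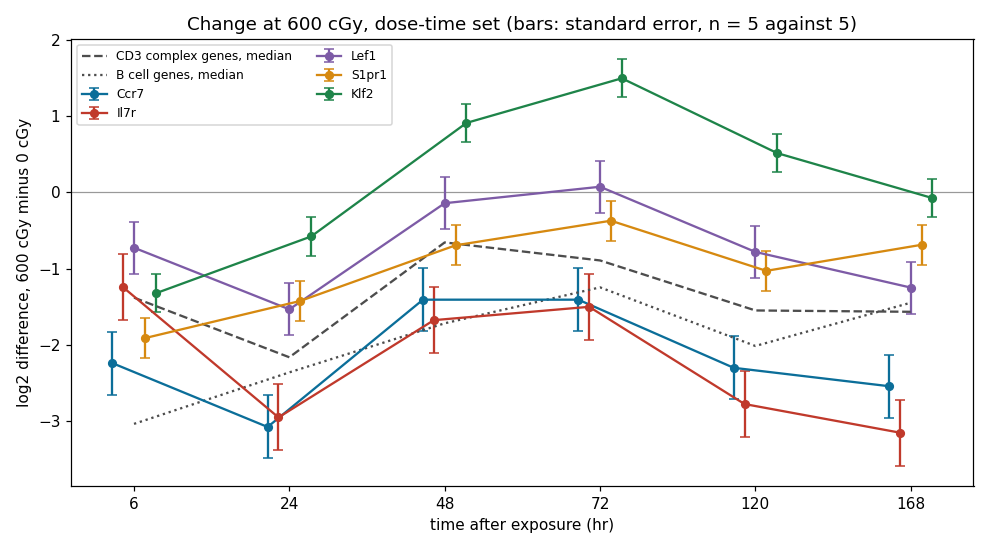
Log2 difference between mice given 600 cGy and unirradiated mice (y axis) against time in hr (x axis) for each gene, with bars of 1 standard error and 5 mice per group; dashed and dotted lines are medians of the CD3 complex and B cell genes. Ccr7 and Il7r stay at or below -1.24 at all times, and Klf2 crosses to 0.91 at 48 hr and 1.50 at 72 hr.

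Other genes of these pathways went several ways. The counts cover whole lists, whereas most of the genes named were picked for the smallest p of their dose slope. Beside the counts below, 18.5% of all genes were lower and 16.2% higher with dose at 6 hr, 19.8% and 18.9% at 24 hr, 23.3% and 24.0% at 48 hr, 27.1% and 26.3% at 72 hr, and 46.6% and 35.5% at 168 hr. Of 20 other homing and adhesion receptors and their signalling proteins, the early count at 6 hr was 8 lower and 1 higher with dose, and by 168 hr it was 9 lower and 8 higher. Ccr6 (-1.64 ± 0.23), Cxcr5 (-2.74 ± 0.48) and Ccr9 (-1.81 ± 0.31), chemokine receptors of B cell follicles and gut homing, were the leading losses after 600 cGy at 6 hr, and Selplg, a selectin ligand that neutrophils also carry, rose (0.72 ± 0.21). At 168 hr Rap1a (-1.83 ± 0.18), a switch of integrin adhesion, and Cxcr4 (-3.08 ± 0.32), the bone marrow homing receptor, had fallen most clearly. The median difference of this list was -0.22 at 6 hr and -0.10 at 168 hr, against 0.13 and -0.07 over all genes. Of 5 measured regulators of CCR7, 2 fell and 1 rose at 6 hr. Arrb1 and Arrb2, the arrestins that desensitise such receptors, rose by 3.16 ± 0.28 and 1.57 ± 0.23 at 72 hr.

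In the sphingosine 1-phosphate pathway, the dose slope was called lower for 3 of 9 genes and higher for 1 at 6 hr, and lower for 3 and higher for 4 at 72 hr, against the shares of all genes given above. S1pr4, a lymphocyte relative of S1pr1, fell at all 6 times, by -1.48 ± 0.21 after 600 cGy at 6 hr. S1pr5, the egress receptor of NK cells, fell at 6 hr (-0.96 ± 0.26) and rose at 48, 72, 120 and 168 hr, by 2.19 ± 0.26 at 72 hr. Of 15 genes of IL-7 signalling and survival, 5 rose at 6 hr with 1 lower (16.2% and 18.5% of all genes), and 12 rose at 48 hr, again with 1 lower (24.0% and 23.3%). At 24 hr 4 rose and 3 fell (18.9% and 19.8%), and at 72 hr 10 rose and 2 fell (26.3% and 27.1%). At 120 hr 5 rose and 5 fell (35.4% and 47.0%), and at 168 hr 4 rose and 9 fell (35.5% and 46.6%). Bcl2, the survival gene downstream of IL-7, was not called at 6 hr (0.10) or 24 hr (-0.21) and fell at the 4 later times, by -0.29 ± 0.17 after 600 cGy at 168 hr with a dose slope of -0.10. Il7 itself, which stromal cells make, rose at 24 hr (0.66 ± 0.16). Jak1, the kinase bound to the receptor, fell at 6 hr (-0.90 ± 0.20).

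Of 22 regulators of the naive or quiescent state, 10 were lower and 3 higher with dose at 6 hr, 13 and 1 at 24 hr, and 11 and 7 at 168 hr. Ets1 (-2.70 ± 0.38), a lymphocyte transcription factor, and Bach2 (-2.75 ± 0.32) and Foxp1 (-2.58 ± 0.37), which help keep T cells naive or quiescent, were far lower after 600 cGy at 6 hr. Foxo1, which in mouse T cells drives Il7r and Klf2, fell at all 6 times, by -1.41, -1.38, -1.15, -0.94, -1.38 and -0.95 at 600 cGy. Satb1, a chromatin organiser of T cells, was lower by -3.32 ± 0.35 at 168 hr. Of 6 KLF2 target genes outside the set, 3 fell at 6 hr and none rose. Cdkn1b, a cell cycle brake, was lower by -1.86 ± 0.22 at 168 hr, where Klf2 itself differed by -0.07 and was not called, and Gzmb, a cytotoxic granule gene, was higher by 1.13 ± 0.35.

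Transcripts of the T cell receptor complex and of B cells were lower too. All 4 CD3 complex genes fell with dose at all 6 times, and Cd3g, Cd3d, Cd3e and Cd247 differed by -2.04, -1.33, -0.78 and -1.43 after 600 cGy at 6 hr. The B cell list fell in 16 or 17 of 18 genes at every time. Setting each gene against the mean of the 4 CD3 genes in the same mouse, Ccr7 fell further than they did at 6, 24, 48, 120 and 168 hr, with slopes of -0.05, -0.04, -0.06, -0.13 and -0.10 per 100 cGy. On this measure 0.573%, 0.0565%, 0.524%, 2.19% and 2.07% of all genes were lower at those times. Because the CD3 genes themselves fell, most genes rise on this measure, and the small shares do not set Ccr7 apart from other lymphocyte genes. After 600 cGy at 6 hr the median difference was -3.03 for the B cell list and -1.38 for the CD3 genes. Il7r was lower than the CD3 genes at 48, 72, 120 and 168 hr (-0.07, -0.05, -0.09 and -0.15), with 0.654% of genes lower at 72 hr. These values hold for the brighter probe set of Il7r. The dimmer probe set, with shallower slopes of -0.16 and -0.19 at 120 and 168 hr before any subtraction, was not set against the CD3 genes. Neither Ccr7 at 72 hr (slope -0.0011, adjusted p = 0.95) nor Il7r at 6 hr (0.03, adjusted p = 0.097) differed from them by the test with all mice.

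These relative losses depended in part on which mice were used. Ccr7 at 48 hr lost its call without the mice numbered 10 or more (adjusted p = 0.92), and Il7r at 72 hr did as well (adjusted p = 0.12). Without these mice Il7r at 6 hr was called higher than the CD3 genes (0.03, adjusted p = 0.035), as it was without the arrays with Alb at 10 or above (0.03, adjusted p = 0.034). The slope of Ccr7 relative to CD3 was 0.03 at 72 hr (adjusted p = 0.057) and -0.09 at 120 hr, still past the threshold, without the mice numbered 10 or more. Without the arrays with Alb at 10 or above, Ccr7 was still called at 6, 24, 120 and 168 hr (-0.05, -0.06, -0.27 and -0.19) but not at 48 hr (adjusted p = 0.067), and Il7r lost it at 120 and 168 hr (adjusted p = 0.074 and 0.15). With a list of 20 T cell genes in place of CD3, Ccr7 was lower at all 6 times and Il7r from 24 hr on. With all mice, the slopes of Lef1 and Klf2 were above those of the CD3 genes at all 6 times and that of S1pr1 from 24 hr on. Without the mice numbered 10 or more those at 120 and 168 hr were 0.09 and 0.12 for Lef1 (0.05 and 0.05 with all mice) and 0.16 and 0.24 for S1pr1 (0.09 and 0.14). Being higher on this measure was shared by most of the array: 89.0%, 96.1%, 97.1%, 97.8%, 90.1% and 94.1% of all genes were higher on this measure at 6, 24, 48, 72, 120 and 168 hr.

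**Figure D3:**
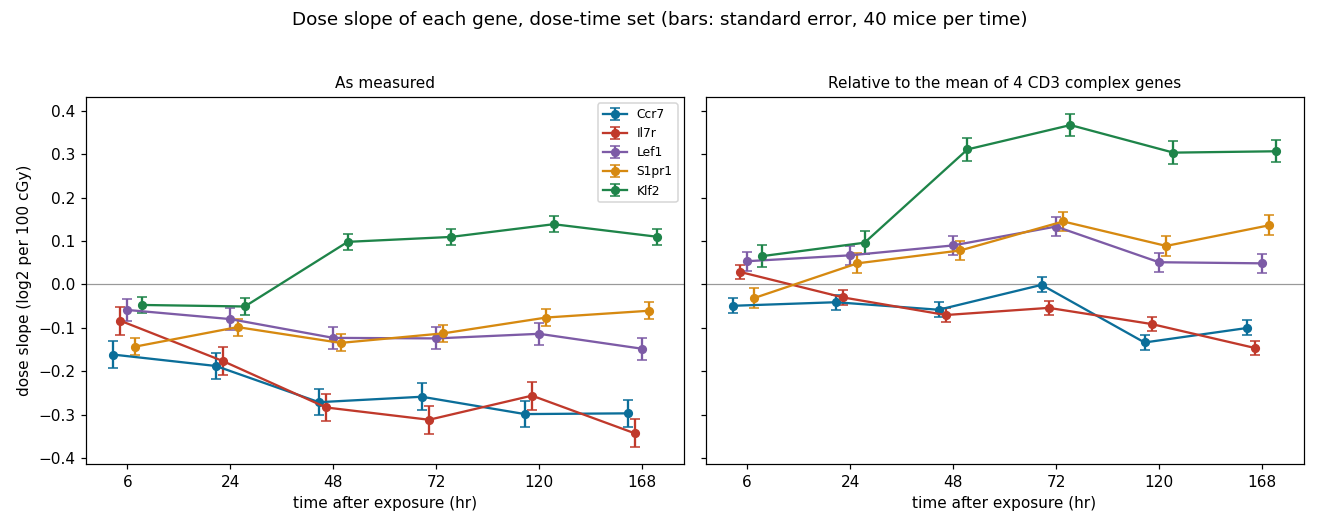
Dose slope in log2 units per 100 cGy (y axis, bars of 1 standard error) against time in hr (x axis) for each gene of the dose-time set, as measured (left) and after subtracting the mean of the 4 CD3 complex genes of the same mouse (right). Ccr7 and Il7r remain below 0 at most times on the right, with Ccr7 at -0.13 at 120 hr and Il7r at -0.15 at 168 hr, and Klf2 lies above 0 throughout.

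The 5 genes differed in which other genes they tracked. Over the differences of the 42 irradiated dose-time groups from their unirradiated group, the gene most like Ccr7 was Cd8b1, a chain of the CD8 coreceptor (r = 0.95), followed by Fgf13, Cd5, Cd247 and Nsg2. Il7r was most like Trib2 (0.92), Cd3g, Nsg2, Fam189b and Satb1, and Lef1 was most like Cd96 (0.93), Fgf13, Nup210, Cd5 and Bcl11b. S1pr1 instead tracked genes of B cells and antigen presentation: H2-DMb2 (0.96), Cd79a (0.95), Tnfrsf13b, Cd79b and H2-Eb1. Klf2 followed Snx17 (0.99), Ik, H2-K1, Ppp2r1a and Tapbp, genes that are not confined to lymphocytes. S1pr1 also correlated with Ccr7 at 0.72 and with Lef1 at 0.69. Ccr7 and Il7r correlated at 0.87 and Ccr7 and Lef1 at 0.89, while Klf2 correlated with Ccr7 at only 0.18 and with Il7r at -0.15. Groups bled at one time share their unirradiated mice, so these correlations describe the profiles and carry no test.

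Between mice of one group, where the labelled dose and time are removed, the genes were less clearly divided. Over 240 mice, Ccr7 correlated with Il7r at 0.84 and with the mean of the T cell list, which holds none of the 5 genes, at 0.89. S1pr1 correlated with the B cell list at 0.82 and with the T cell list at 0.53, and Klf2 with the B cell list at 0.68 and with S1pr1 at 0.66. Ccr7 correlated with the B cell list at 0.72, with S1pr1 at 0.69 and with Lef1 at 0.67. Klf2 correlated with the endothelium list at -0.62. All of these share array and RNA quality. They also include the split groups, such as 800 cGy at 24 hr, with Ccr7 at 6.03 in 1 mouse and 9.16 to 9.81 in the others. The part of the split groups in these correlations was not tested.

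In the sex-treatment set, untreated mice showed the same early losses in part. With the sexes averaged, the dose slope at 6 hr was -0.27 for Ccr7, -0.15 for Lef1 and -0.19 for S1pr1, all called, and 12.4% of all genes fell. Il7r (-0.02) and Klf2 (-0.09, adjusted p = 0.083) were not called. At 24 hr Ccr7 (-0.51), Il7r (-0.42), Lef1 (-0.20) and S1pr1 (-0.25) fell, against 22.9% of all genes, and Klf2 (-0.07) was not called. At 24 hr the level of Ccr7 was 6.39, 7.24, 6.99, 6.99 and 7.34 in females and 6.56, 6.40, 6.92, 6.54 and 7.59 in males given 600 cGy, against 10.08, 10.17, 9.75, 9.93 and 10.24 in females and 9.59, 10.20, 10.34, 9.73 and 9.93 in males at 0 cGy. The groups were far apart in both sexes, with the highest irradiated mouse at 7.59 and the lowest unirradiated one at 9.59.

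LPS without radiation lowered Ccr7, S1pr1 and Lef1 at both times. At 6 hr without radiation, the level of S1pr1 was 6.29, 6.90 and 7.59 in females and 6.64, 6.83, 6.90, 6.86 and 6.86 in males given LPS, against 9.68, 8.97, 9.44, 8.83 and 9.16 in females and 8.39, 7.87, 8.51, 8.46 and 7.70 in males given no agent. LPS mice lay below all untreated mice, and the difference was -1.83 ± 0.23 (adjusted p = 1.2e-11). Ccr7 (-1.66 ± 0.25) and Lef1 (-1.18 ± 0.18) fell as well, while Il7r (-0.53) and Klf2 (-0.56) were not called, against 20.5% of all genes lower. At 24 hr the level of Ccr7 was 8.25, 7.49, 9.02 and 8.26 in females and 7.77, 7.51, 7.92, 7.70 and 6.78 in males given LPS, against the untreated levels above. The groups did not overlap (-2.10 ± 0.23, adjusted p = 3.5e-14). S1pr1 (-1.94 ± 0.22), Il7r (-1.71 ± 0.32) and Lef1 (-1.31 ± 0.17) were lower as well, where 12.7% of all genes were. Klf2 (-0.18) was not called. At both times all 4 CD3 genes and 16 (6 hr) or 18 (24 hr) of 18 B cell genes fell with LPS, and 9 or 12 of 12 neutrophil genes rose; their part in these values was not tested.

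In mice given LPS, few of the genes changed further with dose. At 6 hr the dose slopes under LPS were -0.02 for Ccr7, 0.03 for Il7r, 0.02 for Lef1 and 0.02 for S1pr1, none of them called, and only Klf2 fell (-0.15, adjusted p = 0.0044), against 15.8% of all genes; with 1 mouse per group left out, between 0 and 1 gene was called. The level of Ccr7 at 6 hr was 8.48, 8.52, 8.63, 8.25 and 7.81 in females and 6.82, 6.39, 6.82, 6.88 and 6.57 in males given LPS and 600 cGy. LPS mice at 0 cGy had 8.34, 8.48 and 8.06 in females and 6.96, 6.69, 7.38, 7.04 and 7.41 in males, so the doses overlapped in both sexes. The slope under LPS was higher than with no agent by 0.24 for Ccr7, 0.17 for Lef1 and 0.21 for S1pr1 at 6 hr (adjusted p = 0.00087, 0.002 and 0.0028), a change that 2.49% of all genes shared in direction. At 24 hr Ccr7 (-0.20) and S1pr1 (-0.16) fell with dose under LPS, where 9.80% of genes did. The slopes of Ccr7, Il7r and Lef1 were then higher under LPS than with no agent by 0.31, 0.28 and 0.18 (7.42% of genes).

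**Figure D4:**
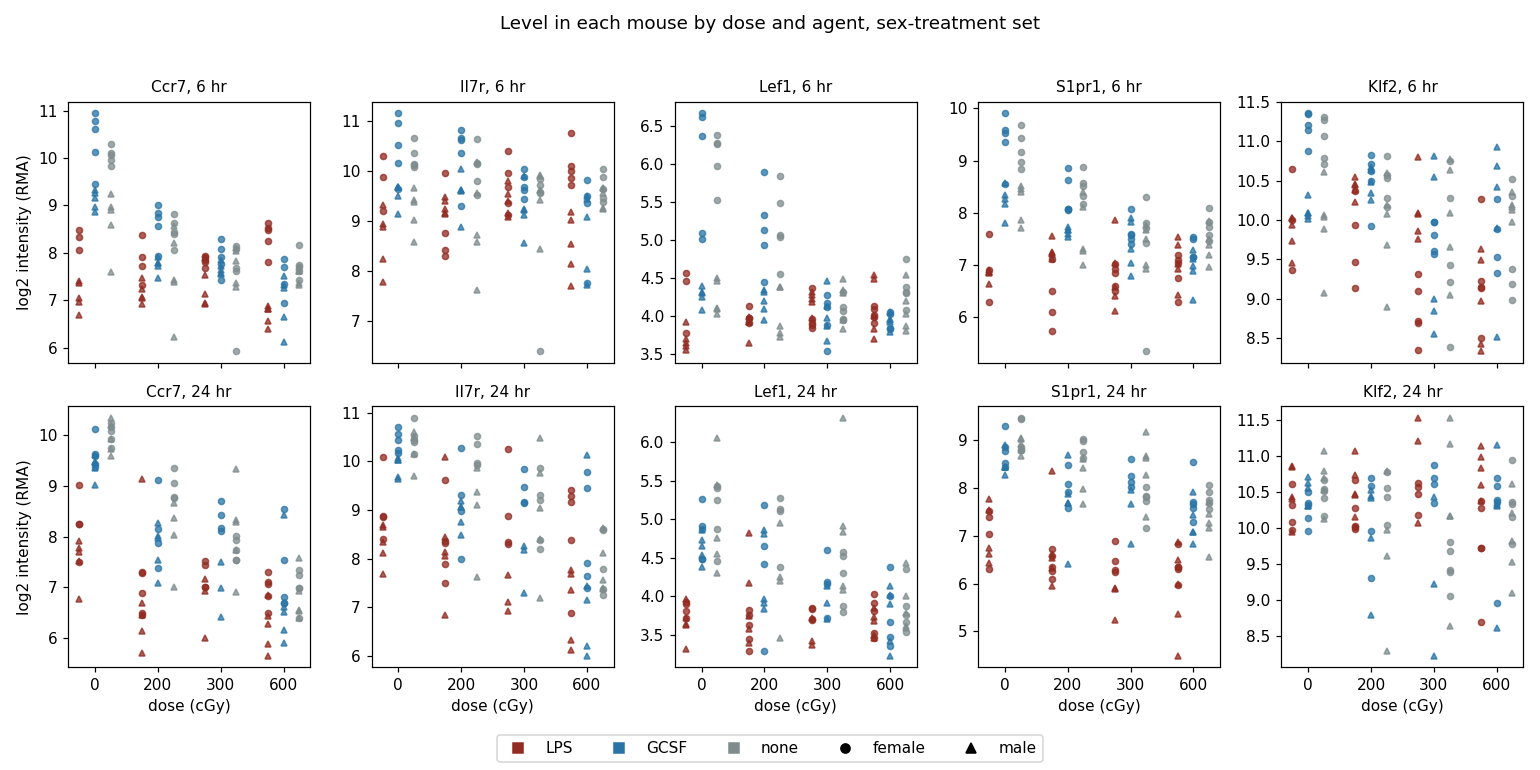
Log2 intensity (y axis) of each gene in every mouse of the sex-treatment set against dose in cGy (x axis) at 6 hr (upper row) and 24 hr (lower row), with LPS, GCSF and no agent side by side at each dose and circles for females, triangles for males. LPS mice start low at 0 cGy in Ccr7, Lef1 and S1pr1, and GCSF mice follow the untreated mice.

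Under GCSF all 5 genes fell with dose at 6 hr (Ccr7 -0.40, S1pr1 -0.28, Lef1 -0.20, Il7r -0.19 and Klf2 -0.13), against 23.9% of all genes. At 24 hr 4 did, with Klf2 (-0.03) the exception, against 17.4%. Without radiation GCSF changed none of the 5 by the test, with differences from no agent between -0.05 and 0.39 at 6 hr and between -0.49 and -0.18 at 24 hr. The same comparison called 0% of all genes at 6 hr by limma, with 283 genes at an unadjusted p under 0.05, and 0.549% at 24 hr. Nor did any slope differ between GCSF and no agent by the test, at either time, where 0.0161% and 0.00807% of all genes did.

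At 6 hr unirradiated females had higher levels than males. The level of Lef1 was 5.97, 6.27, 6.38, 6.27 and 5.52 in untreated females and 4.46, 4.11, 4.03, 4.50 and 4.10 in untreated males. The sexes were apart by at least 1 log2 unit (1.84 ± 0.24, adjusted p = 3.1e-09). The level of Ccr7 was 10.11, 9.96, 10.30, 10.06 and 9.84 in females and 8.96, 8.91, 8.58, 9.24 and 7.60 in males, again without overlap (1.40 ± 0.32, adjusted p = 0.00082). Klf2 (1.09) and S1pr1 (1.03) were higher too and Il7r (1.06, adjusted p = 0.059) was not called, so 4 of the 5 differed, where 27.8% of all genes did in either direction. The slopes of Lef1 and Klf2 were steeper in females at 6 hr, both by -0.27 (adjusted p = 0.00029 and 0.014), against 8.98% of all genes; with 1 mouse per group left out, between 1 and 3 genes were called. At 24 hr the unirradiated sexes did not differ in any of the 5 by the test, with differences between -0.18 and 0.19 (0.0726% of all genes did), and no slope differed (0% of genes, with 296 at an unadjusted p under 0.05 by limma).

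Marker lists differed between the sexes in the same 6 hr samples. The mean of the CD3 complex genes per mouse was between 8.86 and 9.37 in females and between 7.66 and 8.77 in males, and the B cell mean was between 8.98 and 9.35 in females and 7.38 and 9.02 in males. The hepatocyte mean ranged up to 5.80 in females and 11.22 in males. The endothelium mean was between 5.17 and 5.48 in females and between 5.58 and 5.88 in males. The part of these markers in the difference between the sexes was not tested, and the labels do not say whether the sexes were handled on one day.

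The small treatment set gave smaller changes at 6 hr. In untreated mice Ccr7 alone was lower, after 150 cGy (lowest 7.79, median 8.59, highest 9.18) and after 600 cGy (8.29, 8.64, 8.48, 8.48 and 8.33 in its 5 mice), against 7.70, 9.65 and 9.93 (lowest, median and highest) at 0 cGy. All irradiated mice lay below the unirradiated mice other than the one at 7.70, and the differences were -0.87 ± 0.23 and -0.94 ± 0.24 (adjusted p = 0.023 and 0.0098), where 1.07% and 1.86% of all genes were lower. Under GCSF none was lower after 150 cGy (0.807% of genes), and Ccr7 (-1.83 ± 0.24) and S1pr1 (-0.94 ± 0.23) were lower after 600 cGy (14.1%). Under LPS none was lower after 150 cGy (2.40%), and Ccr7 (-0.70 ± 0.23) and S1pr1 (-0.66 ± 0.22) were after 600 cGy (9.55%). LPS without radiation lowered Ccr7 (-1.02 ± 0.23) and S1pr1 (-1.35 ± 0.22), with 26.2% of genes changed in either direction, and GCSF without radiation changed none of the 5 (0.549%). Leaving out 1 mouse per group gave between 0 and 2 calls at 150 cGy, between 0 and 1 at 600 cGy and between 0 and 1 at 600 cGy under LPS.

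In the small 7 day set, 150 cGy lowered all 5 genes at 168 hr. The level of Ccr7 had a lowest, median and highest value of 8.15, 8.56 and 9.02 in 10 mice given 150 cGy, against 9.70, 10.27 and 10.59 in the 3 unirradiated mice. No irradiated mouse reached an unirradiated one (-1.59 ± 0.21, adjusted p = 1.7e-05). Klf2 was at 9.26, 9.90 and 10.32 after 150 cGy, against 10.72, 11.10 and 11.50 at 0 cGy, likewise without overlap (-1.30 ± 0.22, adjusted p = 0.00011). Il7r (-1.66 ± 0.23), S1pr1 (-1.17 ± 0.18) and Lef1 (-0.84 ± 0.25) were lower as well, and 33.3% of all genes were. In the dose-time set at this time, group means of Klf2 were likewise lower after 100 and 200 cGy (10.40 and 9.75) than at 0 cGy (10.97). The mean of the CD3 genes was between 7.98 and 9.20 after 150 cGy, against 9.86 to 10.36 at 0 cGy, and the hepatocyte mean was between 4.94 and 8.38, against 4.29 to 4.87; their part in these values was not tested.

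**Figure D5:**
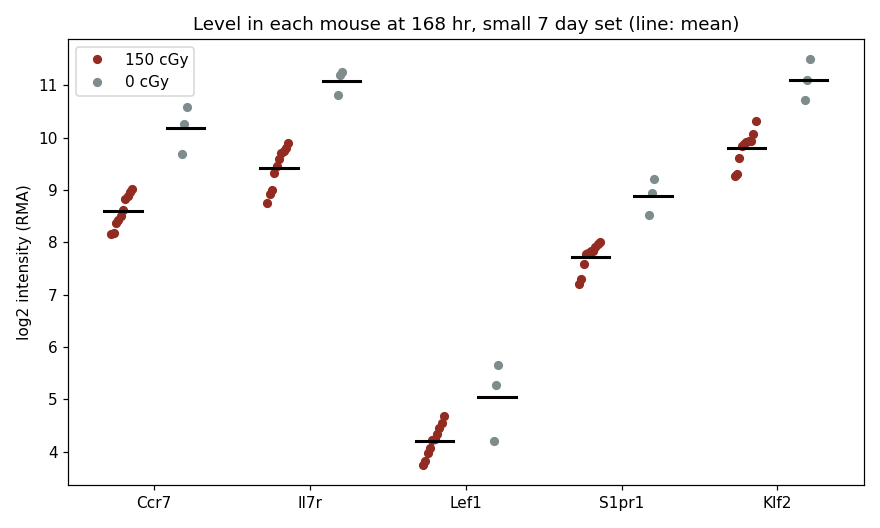
Log2 intensity (y axis) of each gene (x axis) in every mouse of the small 7 day set at 168 hr, with 10 mice given 150 cGy left of 3 mice given 0 cGy; lines are group means. The groups do not overlap for Ccr7, Il7r, S1pr1 and Klf2, and 1 unirradiated mouse lies within the irradiated range of Lef1.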

How the data were processed

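Mouse blood RNA was measured on 536 Affymetrix arrays. The deposited values are log2 intensities per probe set, made by the authors with RMA in the affy package per the submitters' processing notes; the versions are not given in the sources used here. RMA normalises all arrays to a common distribution, so a change in total RNA per volume of blood is not seen. Of 22690 probe sets, 20380 named a single gene, and the brightest of each gene was kept, giving 12393 genes. Repeat scans of 2 mice were averaged. In each of the 4 sets a group-means model was fitted across all genes with limma 3.58.1 in R 4.3.3. The trend was a dose slope per 100 cGy, with Benjamini-Hochberg adjustment over all genes and a threshold of 0.05. A p-value or SE rests on the spread between mice within groups, pooled over all groups of the set. In the dose-time set the split groups are part of that spread. A list gene rose or fell where its dose slope passed the test, and its value is the difference at 600 cGy. Model code was tested on simulated data.

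The members, lists and tests were chosen with earlier results of these data known. Named genes were the 5 members, up to 4 genes per list with the smallest p of the trend at 6 hr or at the time described, the CD3 complex, the 5 genes most like each member, and Foxo1, S1pr4, S1pr5, Bcl2 and Alb. Same-numbered mice of different groups did not deviate together (mean correlation over all genes 0.017 in the dose-time set), so the numbers were not taken to pair mice. Arrays limit precision by their number. Alternatives covered normalization, probe set choice, a filter on dim genes, array weights, array run and mouse number as blocks, the variance prior, the dose scale and range, and mice or arrays left out.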

Additional observations from a re-analysis of the deposited data

Results flagged for a closer look

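In 31 of 515 combinations of gene and group, 1 mouse lay far from the rest of its group by Dixon's criterion. In some cases it was the same mouse for several genes. At this limit chance alone gives a call in about 1 in 20 of the 515 combinations, and 31 calls are near that share. In the dose-time set, Ccr7 was at 6.30 in 1 mouse at 200 cGy and 48 hr, against 8.76 to 9.54 in the other mice, at 6.18 at 200 cGy and 72 hr (others 9.74 to 10.20), at 5.65 at 300 cGy and 48 hr (8.94 to 9.18) and at 6.03 at 800 cGy and 24 hr (9.16 to 9.81). Il7r was low in the same mouse in 3 of these groups, at 6.31 at 200 cGy and 72 hr, 6.57 at 300 cGy and 48 hr and 6.99 at 800 cGy and 24 hr, and it was at 7.18 in 1 mouse at 450 cGy and 48 hr. S1pr1 was low at 6.30 at 200 cGy and 48 hr, 6.72 at 300 cGy and 72 hr and 6.83 at 800 cGy and 24 hr, and high at 8.58 at 450 cGy and 120 hr and 7.91 at 800 cGy and 6 hr.

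In the sex-treatment set, 1 male given 200 cGy and LPS had Ccr7 at 9.14 at 24 hr, against 5.71 to 6.70 in the other males, and S1pr1 at 8.37, against 5.95 to 6.61. A female given 300 cGy with no agent had Ccr7 at 5.93 and Il7r at 6.40 at 6 hr, against 7.62 to 8.15 and 9.55 to 9.85 in the other females. A male given 600 cGy and GCSF had Ccr7 at 8.43 at 24 hr. Klf2 was at 10.31 in a male given GCSF without radiation at 6 hr and at 8.95 in a female given 600 cGy and GCSF at 24 hr. Lef1 was at 3.65 in a male given 200 cGy and LPS and at 4.37 in a female given 300 cGy and LPS at 6 hr. S1pr1 was at 8.90 in an unirradiated GCSF male at 24 hr and at 6.64 in an unirradiated LPS male at 6 hr.

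In the small treatment set, 1 unirradiated mouse with no agent had Ccr7 at 7.70 and S1pr1 at 7.28, against 9.62 to 9.93 and 8.19 to 8.60 in its group. An unirradiated GCSF mouse had Il7r at 8.67, Klf2 at 9.93 and S1pr1 at 7.27. Klf2 was at 9.53 in 1 mouse given 150 cGy with no agent, and S1pr1 was at 8.77 in 1 mouse given 150 cGy and GCSF.

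Dose slopes that differed between groups were also found by limma. LPS raised the slope per 100 cGy, relative to no agent, by 0.24 for Ccr7, 0.17 for Lef1 and 0.21 for S1pr1 at 6 hr and by 0.31 for Ccr7, 0.28 for Il7r and 0.18 for Lef1 at 24 hr. Females had lower slopes than males at 6 hr, by -0.27 for Lef1 and -0.27 for Klf2. Slopes differed over the 6 times with F values of 3.57 for Ccr7, 9.09 for Il7r, 2.79 for S1pr1 and 21.2 for Klf2.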

How the results depend on the processing

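Of 3684 values of the 5 genes under alternatives, 3511 were labelled unchanged, 106 lost their call, 45 gained one, 12 moved and 10 reversed. The 3511 are not a count of values with the same direction and the same call. The slope of Il7r relative to CD3 at 6 hr, labelled unchanged, was above 0 with all mice and -0.013 over 0 to 300 cGy. That slope was called in neither fit. Of the counts of genes called, 549 stayed within 1.5 times their value and 49 moved further. With 0 to 300 cGy alone, the slope of Lef1 was 0.0012 at 48 hr and 0.25 at 72 hr, that of Klf2 was -0.27 at 120 hr and -0.59 at 168 hr, and 3 genes were called at 72 hr; relative to the CD3 complex, the slope was -0.16 for Klf2 at 6 hr and -0.044 for S1pr1 at 120 hr, and 1, 3, 2, 1 and 3 genes were called at 6, 48, 72, 120 and 168 hr. Without arrays with Alb at 10 or above, the slope of Klf2 was -0.28 at 120 hr and -0.63 at 168 hr, 100 cGy gave 0 calls at 48 hr and 1 at 168 hr, and, relative to CD3, S1pr1 was at -0.042 at 120 hr and 2, 1 and 3 genes were called at 48, 120 and 168 hr; these fits hold fewer mice. With the T cell list in place of CD3, S1pr1 was at -0.0093 at 24 hr, and 2 and 3 genes were called at 24 and 48 hr. Without the mice numbered 10 or more, an alternative chosen after seeing the data, 100 cGy gave 2 calls at 48 hr and 1 at 72 hr. For the same 100 cGy comparison, array weights gave 1 call at 72 hr and 3 at 168 hr, and quantile normalization gave 0 at 48 hr. With mouse number as a replicate block, 100 cGy gave 2 calls at 48 hr, and no other count moved by over 1.5 times. The cause of these shifts was not tested.

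Leaving out 1 mouse per group gave between 2 and 5 calls for the trend at 6 hr, 3 and 5 at 24 hr, 0 and 1 for 100 cGy at 48 hr, 2 and 4 for the difference between times, 0 and 1 for the LPS trend at 6 hr and 1 and 3 for the slope difference between females and males. In the small treatment set it gave between 0 and 2 calls at 150 cGy, 0 and 1 at 600 cGy, and 0 and 1 at 600 cGy with LPS. Relative to CD3 it gave between 1 and 3 calls at 6 hr and 2 and 5 at 24 hr. The filter on dim genes removes Lef1, which then has no value.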

Other observations

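The small 7 day set also held 5 unirradiated mice bled at 6 or 24 hr, which enter no comparison. Ccr7 averaged 10.64 ± 0.21 (SD, n = 3) at 6 hr and Klf2 averaged 11.33 ± 0.33. In the pair bled at 24 hr, Ccr7 lay at 10.27 and 10.83 and Klf2 at 10.96 and 11.61.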
